A study of Mus musculus with 8 samples.

Results

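The mitosis and spindle genes are 52 genes whose products carry a cell through nuclear division: cyclins and mitotic kinases, spindle checkpoint and kinetochore proteins, kinesin motors, and proteins of the spindle and of cytokinesis. They were taken as a list of names. A gene was measured where the array's annotation gave a probe set exactly 1 symbol equal to its name, and the probe set with the highest mean over all 8 arrays was kept. By name 50 genes were found, and Sgol1 was found under its current symbol Sgo1, so that 51 of the 22180 genes measured in this way are described. Ccnb1 was not analysed here. All 51 lay above the level filter, with a lowest mean level of 5.36 (Stmn1, log2 scale) against 3.9 for the lowest gene tested.

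The arrays measured RNA of donor CD4+ T cells from a mouse model of colitis, in which naive T cells expand in a host that lacks lymphocytes and inflame its gut. The groups were 4 arrays of Irak1-/- cells carrying the CD45.2 form of CD45 and 4 arrays of wt cells carrying CD45.1, all on the C57BL/6 strain. Both populations were injected together into the same Rag1-/- recipients, whose own T and B cells are missing while myeloid and NK cells remain. The mesenteric lymph nodes were taken after 14 days, and CD3+ CD4+ cells were sorted by genotype. There were 4 replicate experiments, in which nodes of 2 recipients were pooled and 1 array of each genotype was run, called a pair here. IRAK1 is a kinase that relays signals of IL-1 family and Toll-like receptors. Every Irak1-/- array also carries CD45.2 and every wt array CD45.1, so genotype and donor cannot be told apart.

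Dividing T cells make most of these transcripts in a burst between the end of DNA replication and the end of mitosis, and break down many of the proteins as they leave it. CDK1 with cyclins A and B starts mitosis, kinetochores tie chromosomes to spindle microtubules, the spindle checkpoint holds back the anaphase-promoting complex until every chromosome is attached, and kinesins and the centralspindlin complex then separate the daughter cells. In lymphocytes such genes serve as markers of cycling cells, with Mki67 the most widely used. In bulk RNA, fewer dividing cells and less RNA per dividing cell cannot be told apart.

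Levels are on the log2 scale, the median of each array lay between 4.25 and 4.31, and the number of arrays limits the precision. Irak1 itself read 6.93, 6.83, 6.997 and 6.61 in Irak1-/- arrays 1 to 4 and 7.16, 6.89, 6.64 and 6.39 in wt arrays 1 to 4, a difference of 0.07 (SE 0.129, adjusted p = 0.953). The groups overlapped, and since the sources used here state neither which part of the gene was removed nor where its probes lie, this level does not check the genotype labels. The Irak1-/- array of replicate 3 stood apart: it correlated with the others at 0.957 to 0.970 across genes tested, while the other arrays correlated among themselves at 0.976 to 0.986. T cell markers were high on every array, with Cd3d at a mean of 11.24 in Irak1-/- and 11.28 in wt arrays and Cd4 at 8.92 in Irak1-/- and 9.04 in wt arrays. The 20 measured of 21 myeloid markers had a mean level of 5.67 to 6.10 in Irak1-/- arrays and 4.86 to 5.10 in wt arrays (sums of log2 levels 113.5 to 122.0 and 97.2 to 102.0), 2 were under every array's median, and 4 (Lyz2, Tyrobp, Fcer1g and H2-Aa) passed as higher in Irak1-/-. Over all genes tested 0.0751% passed, 9 higher and 1 lower. Of the 18 myeloid markers tested, 16 had positive fitted differences, some of them small, such as Itgam at 0.05. The other 2 were negative, Itgax at -0.59 and Cst3 at -0.005. The 11 measured of 12 markers of NK cells, ILC and CD8 T cells averaged 6.11 to 6.38 in Irak1-/- and 6.45 to 6.52 in wt arrays. This mean joins unlike levels, with Il7r at 10.75 in Irak1-/- and 10.87 in wt arrays and Ncr1 at 3.96 and 3.91. In this list 1 marker was under every array's median. Fitted differences were negative for 8, among them Cd8a at -0.55, and positive for 3, among them Cd8b1 at 0.31, and none passed. B and plasma cell markers, 9 of 10 measured, lay at 3.54 to 3.68 in Irak1-/- and 3.56 to 3.84 in wt arrays, and 5 of the 9 were under every array's median.

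Promoters of mitotic genes are known for a pair of short elements, the CCAAT box, which binds NF-Y, and the cell cycle genes homology region (CHR), which binds the MuvB complexes that repress the genes in resting cells and activate them in G2. Promoter windows of 300 bases, from 250 before to 50 after each start site in RefSeq's GRCm38.p6 tables, were at hand for 45 of the 51 genes, in 50 windows. The CHR was searched as TTTGAA, read on the other strand as TTCAAA, and as the palindrome TTCGAA. The CCAAT box was searched as CCAAT and, for the other strand, as ATTGG. CHR letters stood in 37 of the 50 windows (74%), against 19.2% of all 32851 windows in the table. CCAAT letters stood in 38 (76%), against 37.4% of all windows, and both together in 32 (64%), against 7.52%. Letters of an E2F site (TTTCCCGC or TTTGGCGC, with GCGGGAAA and GCGCCAAA for the other strand) were in 2 windows (4%), against 1.56% of all. In the 35 windows of 30 S phase genes CHR letters were in 17.1%, CCAAT letters in 54.3% and E2F letters in 28.6%. None of these strings contains another. These are matches of letters, not measured binding sites, and genes with several windows count more than once.

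**Figure D1:**
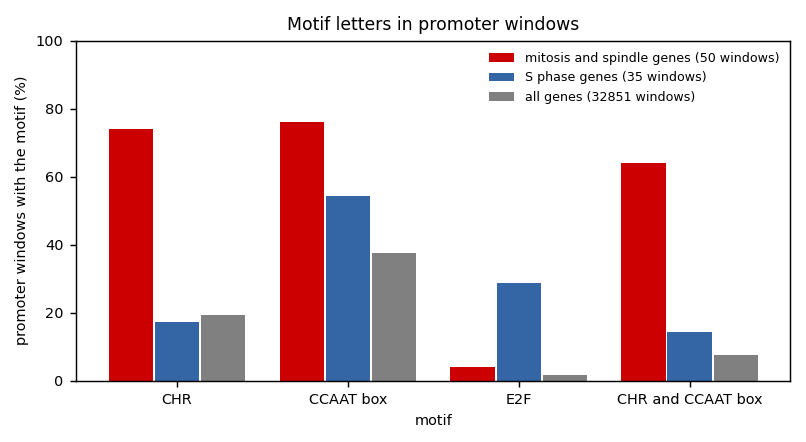
Share of promoter windows of 300 bases (%) that hold the letters of each motif, for mitosis and spindle genes (red), S phase genes (blue) and all genes in the table (grey). Both CHR and CCAAT letters stood in 64% of the windows of mitosis and spindle genes, against 7.52% of all windows.

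The windows of 5 genes described below are shown because their array values or their layout stand out: Hmmr had the lowest p in the test over replicate experiments, Bub1b and Anln had the lowest p between genotypes, Ccnb2 shows evenly spaced boxes, and Melk, with the widest spread over experiments, holds neither motif. Capitals mark CHR and CCAAT letters. The windows lie at chr11:40733388-40733687 (minus strand) for Hmmr, chr9:70421505-70421804 (minus) for Ccnb2, chr2:118597961-118598260 (plus) for Bub1b, chr9:22389157-22389456 (minus) for Anln and chr4:44300667-44300966 (plus) for Melk, all in GRCm38.p6. Each reads 5′ to 3′ on the gene's strand.
Hmmr: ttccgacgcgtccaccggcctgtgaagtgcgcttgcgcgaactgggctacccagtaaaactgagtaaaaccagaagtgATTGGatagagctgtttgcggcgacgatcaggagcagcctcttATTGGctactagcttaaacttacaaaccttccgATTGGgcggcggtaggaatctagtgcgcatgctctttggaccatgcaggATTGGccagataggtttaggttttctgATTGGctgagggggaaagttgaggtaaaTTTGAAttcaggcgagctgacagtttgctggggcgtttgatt
Ccnb2: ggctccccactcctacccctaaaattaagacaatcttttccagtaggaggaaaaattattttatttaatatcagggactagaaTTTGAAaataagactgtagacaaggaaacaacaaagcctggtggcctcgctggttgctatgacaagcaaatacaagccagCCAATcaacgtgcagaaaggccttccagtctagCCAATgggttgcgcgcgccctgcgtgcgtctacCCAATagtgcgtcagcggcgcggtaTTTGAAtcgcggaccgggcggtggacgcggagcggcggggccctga
Bub1b: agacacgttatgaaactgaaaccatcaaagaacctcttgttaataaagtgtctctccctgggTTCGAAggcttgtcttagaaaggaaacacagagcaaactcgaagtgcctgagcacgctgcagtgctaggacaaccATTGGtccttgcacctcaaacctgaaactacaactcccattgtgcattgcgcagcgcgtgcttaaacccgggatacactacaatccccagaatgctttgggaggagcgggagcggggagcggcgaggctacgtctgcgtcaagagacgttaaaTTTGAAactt
Anln: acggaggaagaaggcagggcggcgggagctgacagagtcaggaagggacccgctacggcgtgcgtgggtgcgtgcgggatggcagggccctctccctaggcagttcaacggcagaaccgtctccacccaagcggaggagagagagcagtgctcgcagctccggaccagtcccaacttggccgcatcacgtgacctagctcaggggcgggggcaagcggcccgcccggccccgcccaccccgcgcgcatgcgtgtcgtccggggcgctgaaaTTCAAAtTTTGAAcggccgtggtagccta
Melk: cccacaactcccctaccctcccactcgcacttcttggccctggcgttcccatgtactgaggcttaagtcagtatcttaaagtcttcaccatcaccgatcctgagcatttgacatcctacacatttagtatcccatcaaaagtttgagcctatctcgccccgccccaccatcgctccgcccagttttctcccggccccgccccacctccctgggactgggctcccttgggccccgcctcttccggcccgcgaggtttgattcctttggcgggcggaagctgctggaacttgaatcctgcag

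Ccnb2 holds 3 CCAAT boxes that start 87, 54 and 21 bases before the start site, a step of 33 bases each time, a CHR 4 bases after it and a further CHR 167 bases before it. Hmmr has 5 boxes in the reverse reading, ATTGG, and a CHR 8 bases after the start. Bub1b has a CHR 40 bases after the start, a further one 188 bases before it and a single box. In Anln a pair of CHR matches stand 21 and 28 bases after the start with no box in the window. The 29 genes with both motifs had a median Irak1-/- minus wt difference of -0.13 and the 16 with a window that lacked one or both had -0.12 on the log2 scale. The median of pair 1 minus pair 3 was 0.72 for the 29 and 0.79 for the 16. In the F test over pairs described below, 23 of the 29 and 14 of the 16 had an unadjusted p under 0.05, against 9.66% of all genes tested. The windows shown were picked and stand for no link between motifs and spread.

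More of the variance of these genes lay between replicate experiments than between genotypes, as it did in the median over all genes tested. Over the 51 genes the median level was 7.83, 7.53, 6.94 and 7.31 in the Irak1-/- arrays of replicates 1 to 4, and 7.70, 7.80, 7.32 and 7.25 in the wt arrays. In both genotypes the arrays of replicates 3 and 4 lay below those of replicates 1 and 2, and the Irak1-/- array of replicate 3 lay lowest. Among wt arrays alone the median was highest in replicate 2 and lowest in replicate 4, so the order of the pairs rests partly on the Irak1-/- arrays. The mean of a pair was highest in pair 1 for 48 of the 51 genes, where 34.3% of all genes tested had their highest mean, and lowest in pair 3 for 45, where 37.2% had their lowest. The Irak1-/- array of replicate 3 was the lowest of all 8 for 42 genes, against 29.4% of all genes tested. The median gap, pair 1 minus pair 3, was 0.72 on the log2 scale, against 0.06 over all genes, for which other pairs were often highest or lowest. The median range from a gene's lowest to its highest pair mean was 0.72, against 0.31 over all genes.

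**Figure D2:**
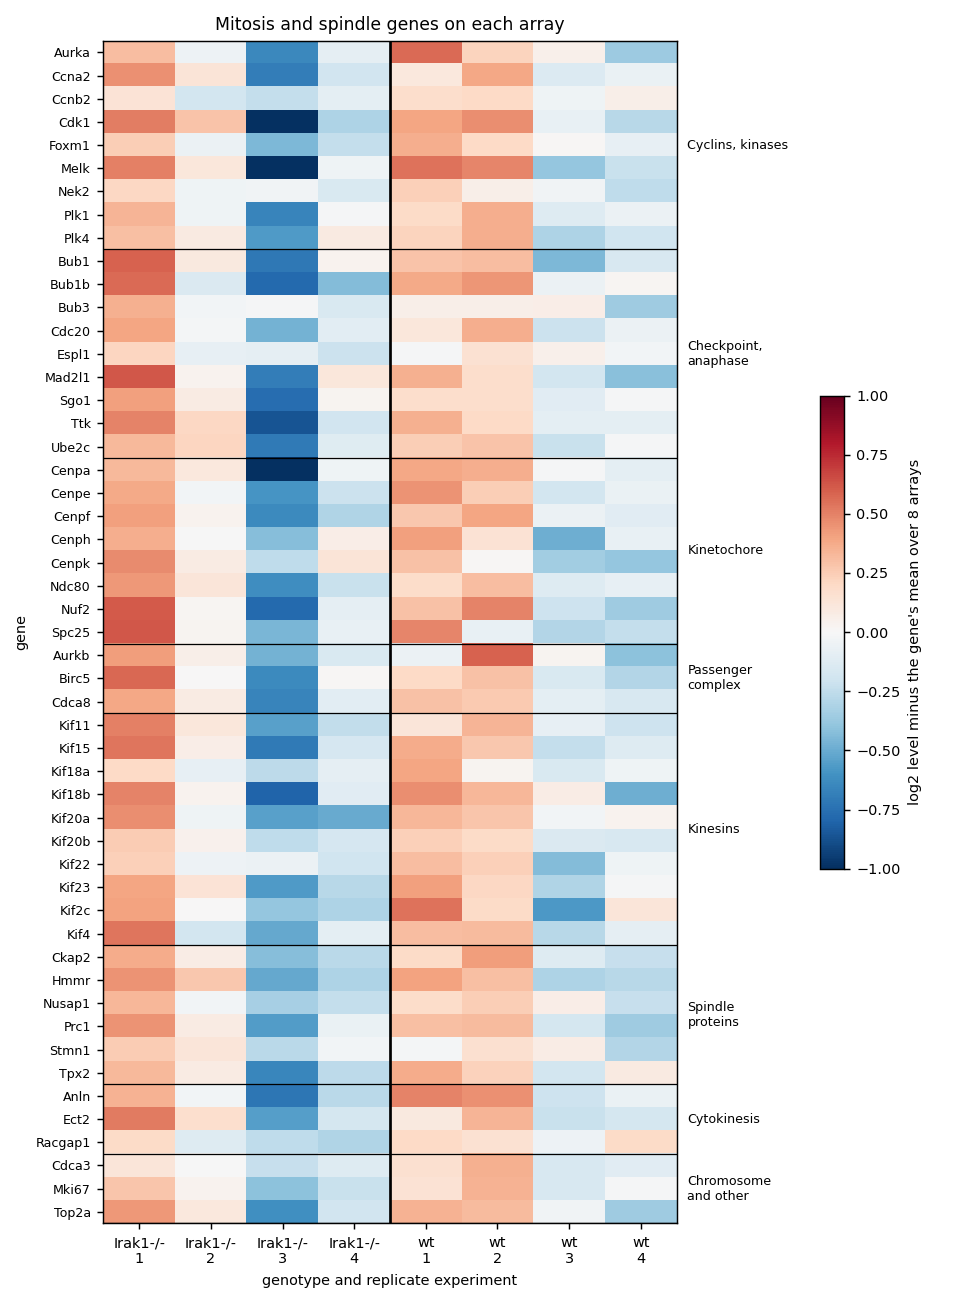
Level of each of the 51 genes (rows, grouped by role) on each array (columns, Irak1-/- left and wt right, by replicate experiment), as the log2 level minus the gene's mean over 8 arrays, on a colour scale that ends at -1 and 1. Replicate 1 is red in both genotypes for nearly every gene, and the Irak1-/- array of replicate 3 is the bluest column.

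Differences among the 4 experiments took a median of 76.1% of each gene's variance over the arrays, against 47.3% over all genes tested, and genotype took 4.86%, against 7.96%. The experiments have 3 degrees of freedom, more than genotype has, so each share is to be read against that over all genes. In limma's F test over the pairs, with genotype in the model, 41 of the 51 genes (80.4%) had an unadjusted p under 0.05, against 9.66% of all genes tested. None passed after adjustment over all 13308 genes, and neither did any other gene (0%), with adjusted p of 0.322 to 0.872 for the 51. The count rests on the outer experiments: it was 24 without pair 1, against 7.93% of all genes, and 26 without pair 3, against 8.57%. Leaving out the Irak1-/- array of replicate 3 alone also gave 26, against 8.60%. The genes vary together, so these counts are not those of independent genes. Mean T cell marker levels ran from 10.13 to 10.41 in Irak1-/- and from 10.29 to 10.40 in wt arrays, and the lowest of them, 10.13, was on the Irak1-/- array of replicate 3.

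Other genes of the cell cycle, listed by function, differed in how many had a low p over the pairs. Of 36 S phase genes, which copy DNA, 20 (55.6%) had a p under 0.05 over the pairs and the median of pair 1 minus pair 3 was 0.64. Among further kinetochore and centromere genes it was 15 of 26 (57.7%), with a median of 0.56, and among further spindle and cytokinesis genes 11 of 27 (40.7%), with 0.45. Regulators of mitotic entry and G2 had 6 of 15 (40%). Condensin and cohesin, the rings that compact and hold sister chromatids, had 4 of 17 (23.5%), and the anaphase-promoting complex, which cells also use outside mitosis, had 4 of 18 (22.2%). G1 cyclins and cell cycle inhibitors had 1 of 16 (6.25%) and T cell markers 0 of 6. Of the variance of the S phase genes a median of 80.6% lay between pairs, against 76.1% for the mitosis and spindle genes.

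**Figure D3:**
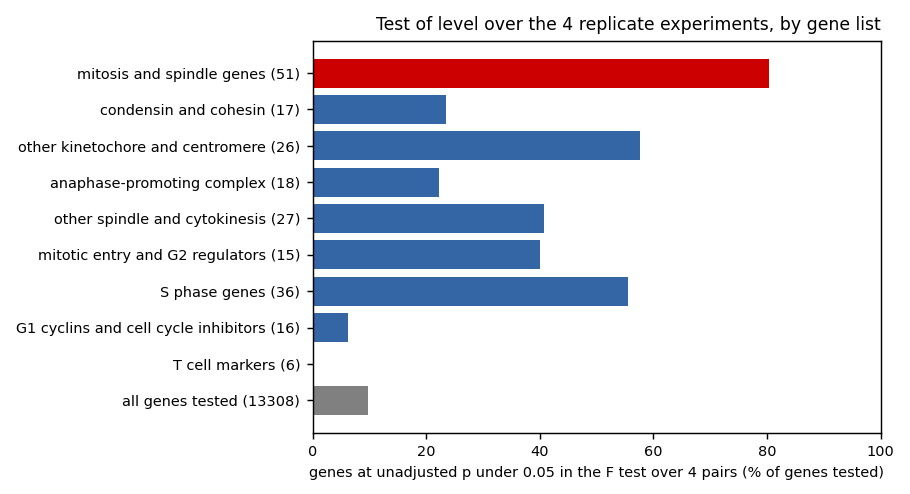
Share of the genes tested (%) with an unadjusted p under 0.05 in the F test over the 4 pairs, for mitosis and spindle genes (red, 51 genes), other lists (blue, number tested in brackets) and all genes tested (grey, 9.66%). The share is 80.4% for mitosis and spindle genes and 6.25% for G1 cyclins and inhibitors.

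The genotypes differed little beside that spread, and in different directions from experiment to experiment. Fitted differences ran from -0.39 (Bub1b) to 0.21 (Cenpk) on the log2 scale, 44 negative and 7 positive, where 58.1% of all genes tested were negative. Their median was -0.13, against -0.03 over all genes. No gene passed, with adjusted p of 0.610 or more, where 0.0751% of all genes tested were called. At an unadjusted p under 0.05 there were 2 of 51, Bub1b and Anln, both lower, where 3.82% of all genes were lower at that p. Without pair 3 none of the 51 had such a p. The levels of Irak1-/- and wt arrays overlapped for all 51 genes, while they did not overlap for 3.04% of all genes tested.

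Within the pairs the median difference was 0.13 in pair 1, -0.24 in pair 2, -0.41 in pair 3 and -0.02 in pair 4, against medians over all genes between -0.06 and 0.00. The Irak1-/- array was lower for 16 of 51 genes in pair 1, 48 in pair 2, 47 in pair 3 and 30 in pair 4, where the shares over all genes were 50.5%, 57.3%, 57.4% and 49.7%. All 4 pairs were lower for 9 genes, where 8.91% of all genes were, and all 4 were higher for 1 gene, Cenpk, where 5.26% were. Without pair 3 the median was -0.03 and 34 of the 51 differences were negative. Leaving out only its Irak1-/- array in the fit with pairs gives the same differences, because the wt array then has no partner, so it is no separate check. Leaving out the Irak1-/- array of replicate 3 in a fit without pairs gave a median of 0.04, with 19 negative. That fit keeps the wt array of the pair with the lowest levels.

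The 95% confidence intervals bound what these arrays could miss. Taken over all 51 genes they reached from 0.595-fold (Bub1b) to 1.40-fold (Cenpk). In pairs 1 to 4 the mean myeloid marker level differed by 0.57, 0.84, 1.11 and 0.94 (Irak1-/- minus wt), and the mean of markers for NK cells, ILC and CD8 T cells by -0.10, -0.35, -0.26 and -0.23. T cell markers differed by 0.12, -0.03, -0.21 and -0.04. The part of these shifts in the values of the mitosis and spindle genes was not tested.

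**Figure D4:**
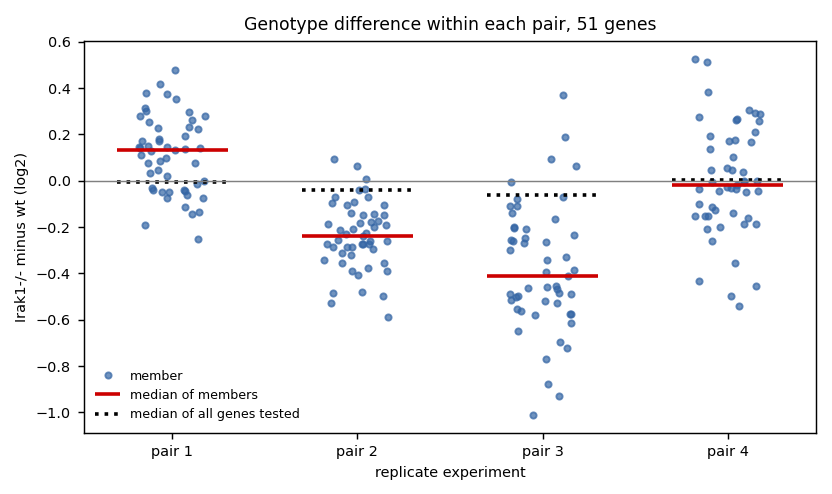
Irak1-/- minus wt difference (log2) of each of the 51 genes within each replicate experiment (points), with the median of these genes (red line) and of all genes tested (dotted line). The red line lies at 0.13 in pair 1, -0.24 in pair 2, -0.41 in pair 3 and -0.02 in pair 4.

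Cyclins, mitotic kinases and their regulator had negative fitted differences for 9 of 9 genes tested, with a median of -0.19, and none passed. Foxm1, the transcription factor that drives many G2 and M phase genes, read 7.08, 6.77, 6.38 and 6.59 in Irak1-/- arrays 1 to 4 and 7.19, 7.03, 6.84 and 6.75 in wt arrays 1 to 4. It was lower in the Irak1-/- array of every pair, yet the groups overlapped, and the difference was -0.25 (SE 0.111, adjusted p = 0.774). Ccnb2, a cyclin partner of CDK1 with the 3 evenly spaced boxes, read 10.22, 9.90, 9.85 and 9.99 in Irak1-/- and 10.26, 10.29, 10.05 and 10.15 in wt arrays. Its pair means spanned 0.30 (F test adjusted p = 0.768), and the genotype difference was -0.19 (SE 0.110, adjusted p = 0.827). Melk, a kinase of proliferating cells whose window held neither motif, read 7.07, 6.67, 5.56 and 6.52 in Irak1-/- and 7.10, 7.05, 6.17 and 6.34 in wt arrays. Pair 1 lay 1.22 above pair 3 on the log2 scale, the widest gap of the 51 genes, and 86.2% of its variance lay between pairs (F test adjusted p = 0.335). Cdk1 itself, Ccna2, Aurka, Plk1, Plk4 and Nek2 had differences between -0.26 and -0.01.

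Spindle checkpoint and anaphase genes had a median difference of -0.10 over 9 genes, 6 negative and 3 positive. Bub1b, the gene of the checkpoint kinase-like protein BubR1, read 7.42, 6.70, 6.07 and 6.41 in Irak1-/- and 7.22, 7.29, 6.79 and 6.87 in wt arrays. The Irak1-/- array was higher in pair 1 and lower in the other pairs. The fitted difference was -0.39 (SE 0.156, adjusted p = 0.708), or 0.762-fold (95% confidence interval 0.595 to 0.975). It was -0.59 without pair 1 and -0.28 without pair 3. Ube2c, the ubiquitin-conjugating enzyme of the anaphase-promoting complex, read 9.55, 9.44, 8.52 and 9.11 in Irak1-/- and 9.47, 9.51, 9.003 and 9.22 in wt arrays, with a difference of -0.15 (SE 0.124, adjusted p = 0.908). Bub1, a checkpoint kinase that marks centromeres, read 7.89, 7.39, 6.58 and 7.33 in Irak1-/- and 7.58, 7.60, 6.85 and 7.14 in wt arrays. Its genotype difference was 0.00 (SE 0.132) while pair 1 exceeded pair 3 by 1.02, with 90.4% of its variance between pairs. Differences of Bub3, Mad2l1, Ttk, Cdc20 and Sgo1, which build or answer the checkpoint or guard centromeric cohesin, lay between -0.18 (Ttk) and 0.08 (Bub3). Espl1, the protease separase that cuts cohesin, had the narrowest range over pair means of all 51 genes, 0.22.

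Centromere and kinetochore genes had the highest pair mean in pair 1 and the lowest in pair 3 for 8 of 8. For Cenpa, Cenpf, Cenpk and Nuf2, however, the wt array of replicate 4 read below that of replicate 3. Cenpe, a kinesin that moves chromosomes to the spindle equator, read 8.51, 8.11, 7.54 and 7.91 in Irak1-/- and 8.58, 8.38, 7.95 and 8.07 in wt arrays. It was lower in all 4 pairs, by a fitted -0.23 (SE 0.110, adjusted p = 0.788). Cenpa, the histone H3 variant that defines centromeres, read 8.76, 8.54, 7.41 and 8.39 in Irak1-/- and 8.82, 8.80, 8.42 and 8.34 in wt arrays. Its difference was -0.32 (SE 0.173, adjusted p = 0.812) with all pairs and -0.090 without pair 3. Spc25, a part of the NDC80 complex that grips microtubules, read 6.91, 6.31, 5.83 and 6.22 in Irak1-/- and 6.78, 6.22, 6.00 and 6.05 in wt arrays, a difference of 0.06 (SE 0.111) beside a gap of 0.93 between pairs 1 and 3. Ndc80 and Nuf2, of the same complex, had -0.14 and -0.12, and Cenpf and Cenph, further kinetochore proteins, had -0.24 and 0.00. Cenpk, a part of the inner kinetochore, read 6.90, 6.51, 6.18 and 6.55 in Irak1-/- and 6.72, 6.44, 6.08 and 6.04 in wt arrays, higher in all 4 pairs at 0.21 (adjusted p = 0.819); it was chosen after its values were seen.

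The chromosomal passenger complex corrects faulty attachments and later directs cytokinesis, and the 3 of its genes among the 51 split by pair. Aurkb, its kinase, read 7.71, 7.35, 6.82 and 7.15 in Irak1-/- and 7.23, 7.88, 7.32 and 6.88 in wt arrays. Birc5, the gene of survivin, read 8.61, 8.04, 7.39 and 8.04 in Irak1-/- and 8.23, 8.32, 7.88 and 7.74 in wt arrays. Cdca8, the gene of borealin, read 7.80, 7.50, 6.75 and 7.31 in Irak1-/- and 7.70, 7.68, 7.31 and 7.25 in wt arrays. All 3 were higher on the Irak1-/- array in pairs 1 and 4 and lower in pairs 2 and 3. Their fitted differences were -0.07, -0.02 and -0.15 for Aurkb, Birc5 and Cdca8, with adjusted p of 0.911 or more.

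Kinesin motors gave negative differences for 10 of 10 genes, with a median of -0.13, and had 83.3% of their variance between pairs (median). Kif20a, which carries the passenger complex to the midzone, read 7.001, 6.49, 5.99 and 6.03 in Irak1-/- and 6.86, 6.81, 6.51 and 6.57 in wt arrays, a difference of -0.31 (SE 0.137, adjusted p = 0.753). Kif23, the motor of centralspindlin, read 7.98, 7.73, 7.03 and 7.31 in Irak1-/- and 7.998, 7.80, 7.29 and 7.57 in wt arrays. That is lower in all 4 pairs by a fitted -0.15 (SE 0.109, adjusted p = 0.885), less than the gap of 0.83 between pairs 1 and 3. Kif2c, which takes microtubules apart at centromeres, read 7.20, 6.80, 6.42 and 6.49 in Irak1-/- and 7.34, 6.99, 6.23 and 6.92 in wt arrays. Here the wt array of replicate 3 was the lowest, and the difference was -0.14 (SE 0.126) with all pairs and -0.25 without pair 3. The other 7 kinesins had differences between -0.19 (Kif18b) and -0.04 (Kif22).

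Spindle microtubule proteins had 5 negative differences and 1 positive, with a median of -0.09. Tpx2, which activates Aurora A on the spindle, read 7.91, 7.67, 6.94 and 7.32 in Irak1-/- and 7.96, 7.82, 7.41 and 7.68 in wt arrays, lower in all 4 pairs at -0.26 (SE 0.116, adjusted p = 0.774). Nusap1, a microtubule bundler, read 8.66, 8.30, 8.001 and 8.09 in Irak1-/- and 8.52, 8.58, 8.39 and 8.10 in wt arrays, a difference of -0.13 (SE 0.125). Hmmr, a spindle protein also known as the hyaluronan receptor RHAMM, read 7.52, 7.34, 6.56 and 6.76 in Irak1-/- and 7.47, 7.37, 6.76 and 6.79 in wt arrays. In Hmmr, whose window holds 5 boxes and a CHR, the Irak1-/- minus wt differences were 0.05, -0.03, -0.21 and -0.03 in pairs 1 to 4. Of its variance, 97.8% lay between pairs (F test adjusted p = 0.322), and the genotype difference was -0.06 (SE 0.106). Stmn1, the microtubule destabiliser stathmin, had the lone positive difference, 0.04, while the microtubule binders Prc1 and Ckap2 had -0.04 and -0.13.

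Cytokinesis genes included the gene with the lowest adjusted p of the 51. Anln, the actin-binding ring protein anillin, read 7.33, 6.95, 6.26 and 6.71 in Irak1-/- and 7.47, 7.43, 6.77 and 6.91 in wt arrays. It was lower in all 4 pairs, and the difference was -0.34 (SE 0.116, adjusted p = 0.610), or 0.793-fold (95% confidence interval 0.660 to 0.952). Racgap1, the GTPase regulator of centralspindlin, read 8.30, 7.98, 7.85 and 7.80 in Irak1-/- and 8.30, 8.26, 8.06 and 8.30 in wt arrays, at -0.25 (SE 0.118, adjusted p = 0.779). Ect2, the exchange factor that switches on RhoA at the cleavage site, read 7.48, 7.13, 6.41 and 6.79 in Irak1-/- and 7.07, 7.30, 6.74 and 6.79 in wt arrays. It differed by -0.02 (SE 0.139).

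Genes of mitotic chromosomes include the most used proliferation markers. Mki67 and Top2a, and Cdca3, which was grouped with them as a further gene, had negative differences that did not pass. Mki67, the gene of the Ki-67 protein that coats mitotic chromosomes, read 10.34, 10.10, 9.65 and 9.84 in Irak1-/- and 10.20, 10.41, 9.90 and 10.05 in wt arrays, a difference of -0.16 (SE 0.118, adjusted p = 0.891). Top2a, the topoisomerase that untangles sister chromatids, read 9.89, 9.56, 8.85 and 9.27 in Irak1-/- and 9.81, 9.77, 9.42 and 9.10 in wt arrays. Its difference was -0.13 (SE 0.142), and it was 0.016 without pair 3. Cdca3, a cell division protein, read 8.30, 8.18, 7.95 and 8.05 in Irak1-/- and 8.34, 8.53, 8.02 and 8.07 in wt arrays, a difference of -0.12 (SE 0.112).

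**Figure D5:**
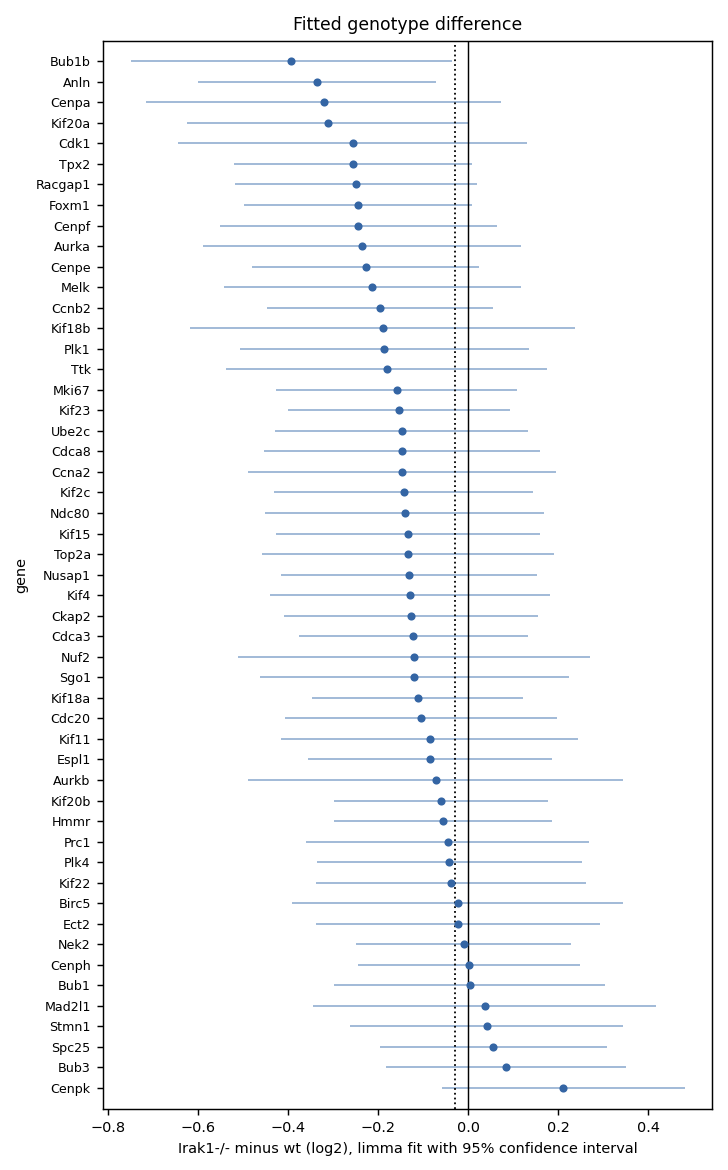
Fitted Irak1-/- minus wt difference (log2, points) of the 51 genes with 95% confidence intervals from limma (bars), ordered by size; the dotted line is the median of all genes tested, -0.03. The intervals of Bub1b and Anln lie below 0 and the other 49 include it.

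Between genotypes the other cell cycle lists also had no gene that passed. Their medians were -0.05 for 36 S phase genes, -0.05 for 17 condensin and cohesin genes, -0.07 for 26 further kinetochore and centromere genes, -0.02 for 18 genes of the anaphase-promoting complex, -0.14 for 27 further spindle and cytokinesis genes, -0.18 for 15 regulators of mitotic entry and -0.08 for 16 G1 cyclins and inhibitors. Trip13, an ATPase that takes checkpoint complexes apart, had -0.36 (adjusted p = 0.603) and Spag5, a spindle protein, -0.30 (adjusted p = 0.746), both lower in all 4 pairs. Cks1b, a small CDK subunit, had -0.30 and Mastl, the kinase that holds back the phosphatase opposing CDK1, -0.24. Among kinetochore genes Spc24, partner of Spc25, had -0.26, and in S phase Rrm2, a subunit of ribonucleotide reductase, had 0.22, higher in all 4 pairs.

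Rbl2 lay closest to the threshold among these lists. It encodes p130, the pocket protein that joins MuvB in resting cells to form the DREAM complex, which represses genes through the CHR. It read 9.55, 9.71, 9.24 and 9.33 in Irak1-/- and 8.77, 8.98, 8.82 and 8.50 in wt arrays. Every Irak1-/- array lay above every wt array, where the genotypes did not overlap for 3.04% of all genes tested. The difference was 0.69 (SE 0.116, adjusted p = 0.124), which did not pass. Whether Rbl2 bears on the levels of the mitosis and spindle genes was not tested. Cdkn1b, the inhibitor p27, had 0.23 (adjusted p = 0.792), higher in 3 of 4 pairs, and Cdkn2a had -0.22 (adjusted p = 0.779).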

How the data were processed

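The table the authors deposited holds log2 values for 41345 probe sets on 8 arrays, per the labels made from cells sorted to above 99.5% purity. How they corrected, summarized and normalized the scans is not stated in the sources used. Probe sets with 1 symbol (23521) were joined to 22180 genes, 23328 of them were matched by gene identifier to the GRCm38.p6 table for their current symbol, and the probe set with the highest mean was kept. Genes under the 40th percentile of mean level were left out, leaving 13308. The genotype test was limma 3.58.1 (R 4.3.3; lmFit and eBayes, pair as a block, two-sided), and pairs by its F test on 3 degrees of freedom; p values were adjusted over all 13308 genes by the Benjamini-Hochberg method and called under 0.05. The pairing comes from the shared recipients and the batch label; deviations from the group means correlated at 0.185, 0.143, 0.201 and 0.0799 in pairs 1 to 4. The procedure was tested on simulated data. The members and lists were chosen with earlier results of these data known. Named with all values are, in each role group, the 2 genes with the lowest genotype p and 1 more with the lowest p over pairs. Other members are named by difference alone or as chosen later, and genes of the other lists are among the 3 with the lowest genotype p in their list. Of the lists, the 1 measured of 6 erythroid markers, Slc4a1, read 3.92 in Irak1-/- and 3.93 in wt arrays.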

Additional observations from a re-analysis of the deposited data

Results flagged for a closer look

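Within groups of 4 arrays, 50 checks looked for a sample far from the others, 2 for each of 24 named genes and 2 for the median level. Chance flags about 1 in 20, and 1 was found: Racgap1 read 8.06 in the wt array of replicate 3, while the other wt arrays read 8.30, 8.26 and 8.30.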

How the results depend on the processing

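No mitosis or spindle gene passed between genotypes under any of 15 alternatives, or over the pairs under those that keep pairs as a fixed term, and the lowest adjusted p between genotypes was 0.417, without pair 1. The number of all genes called between genotypes, 10, was 16 with the replicate block as a random effect, with arrays centred on their medians and with trend and robust settings, and ran from 7 to 17 over the left-out pairs. The 2 mitosis and spindle genes at an unadjusted p under 0.05 became 0 without the replicate block, with it as a random effect, and when the Irak1-/- array of replicate 3 was left out (with or without the block), 5 with quantile normalization or the filter at the 60th percentile, 7 with trend and robust settings, and 0 to 6 over the left-out pairs. Leaving out the replicate block changed no call of these genes and gave 11 calls over all genes. Their median difference ran from -0.23 to -0.03 over the left-out pairs. Over the pairs, 1 gene of all passed with trend and robust settings (none of the 51), and the 41 at an unadjusted p under 0.05 were 24 to 40 over the left-out pairs and 26 when the Irak1-/- array of replicate 3 was left out. Chosen after the data were seen were the fit with pairs that leaves out this array, and the alternatives for the counts by pair and for the counts over the pairs of all genes called and of these genes at an unadjusted p.

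Of 360 values of named genes, 337 kept their direction, but many of them could not turn. The fitted differences equalled the main ones without the replicate block, with it as a random effect, and with trend and robust settings. The same held without the level filter, with the stricter filter, with the mean of a gene's probe sets and with every probe set tested. With pairs, leaving out that array repeated the differences found without its whole pair, so it was no separate check. When that array was left out of a fit without pairs, differences turned to 0.049 for Cdca8, 0.073 for Aurkb, 0.19 for Birc5, 0.085 for Melk, 0.16 for Ect2, 0.0091 for Kif23, 0.050 for Top2a, 0.065 for Ube2c and 0.11 for Hmmr; with pairs, to 0.070 for Aurkb, 0.13 for Birc5, 0.081 for Ect2 and 0.016 for Top2a. Centring gave -0.0051 for Bub1. Over the left-out pairs Aurkb ran from -0.26 to 0.080, Birc5 from -0.16 to 0.13, Ect2 from -0.17 to 0.081, Top2a from -0.23 to 0.016 and Bub1 from -0.096 to 0.095. The cause was not tested. Signal over background is unknown for these arrays.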
